A study of Homo sapiens with 6 samples.

Results

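Immunoglobulin heavy chains are encoded on human chromosome 14, and the kappa and lambda light chains on chromosomes 2 and 22. B cells assemble an antibody gene by joining variable (V), diversity (D) and joining (J) segments, which removes or inverts the DNA between the joined segments, and later exchange the heavy chain constant gene by class switching, which removes the constant genes in between. H3K27me3, the trimethylation of lysine 27 of histone H3 set by the methyltransferase EZH2 in Polycomb repressive complex 2, marks silent chromatin and often spreads over long domains. Described here are the H3K27me3 islands (enriched intervals) that touch 4 immunoglobulin regions of the hg19 build: the IGH constant region (chromosome 14, 106030 to 106330 kb), the IGH variable region (106330 to 107290 kb), IGK (chromosome 2, 89150 to 90280 kb) and IGL (chromosome 22, 22380 to 23270 kb). The islands were selected on their position, and the regions were chosen by a rule written with the folds and covered shares of these lists known, so every value is a description and no test was run. The rule took 123 of the 72972 islands in the 3 lists: 57 of 21320 for Pfeiffer, 28 of 23180 for WSU-DLCL2 and 38 of 28472 for KARPAS-422.

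The 3 lines are established lines of diffuse large B cell lymphoma, all labelled as EZH2 mutant, with average gIC50 values of 28 nM (Pfeiffer), 134 nM (WSU-DLCL2) and 232 nM (KARPAS-422); the labels do not name the compound. No treatment other than formaldehyde fixation is given, and there was a single H3K27me3 library with a single input per line, so no difference between lines can be set against a replicate spread. Each line is an established culture, and the sources do not say which antibody genes it had rearranged. No hg19 annotation was used, so the B cell identity of the lines was not checked against marker genes. Autosomal islands held 16039824 to 17188115 H3K27me3 reads and 5694645 to 8800268 input reads per line, with the fewest input reads in KARPAS-422.

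Many of these genes are near-copies of each other, which matters for how short reads are placed. A pair of microRNA genes in the constant region shows this. In RefSeq order MIR8071-1 lies between IGHE and IGHG4, and MIR8071-2 between IGHG4 and IGHG2. Their hairpins of 65 bases, both on the plus strand of chromosome 14 in the GRCh38.p14 table of RefSeq, differ at 0 positions. Capitals mark the mature microRNA.
MIR8071-1: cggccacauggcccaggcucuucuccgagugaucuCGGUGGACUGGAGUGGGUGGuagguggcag
MIR8071-2: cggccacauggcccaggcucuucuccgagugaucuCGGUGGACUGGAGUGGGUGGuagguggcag
A read from one of these copies could equally come from the other. How such reads were handled was not stated, and its part in the values below was not tested.

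The regions differed widely in how much of them lay in islands. IGL was covered over most of its length in every line: 74.7% for Pfeiffer, 62.2% for WSU-DLCL2 and 63.6% for KARPAS-422, against 25.6%, 24.8% and 24.7% of the autosomes. Of the IGH variable region, islands covered 57.6% (Pfeiffer), 14.1% (WSU-DLCL2) and 27.2% (KARPAS-422). The IGK region was covered over 43.2% for Pfeiffer, but over 3.32% for WSU-DLCL2 and 1.53% for KARPAS-422. The IGH constant region ran in the opposite direction, with 8.00% for Pfeiffer, 13.5% for WSU-DLCL2 and 24.0% for KARPAS-422. Pfeiffer thus had the largest covered share of the variable region, IGK and IGL and the smallest of the constant region. This order did not hold for islands with a fold of at least 2, which covered 1.10% of IGL in Pfeiffer, against 18.8% for WSU-DLCL2 and 10.8% for KARPAS-422, and 0% of the variable region and of IGK in Pfeiffer.

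**Figure D1:**
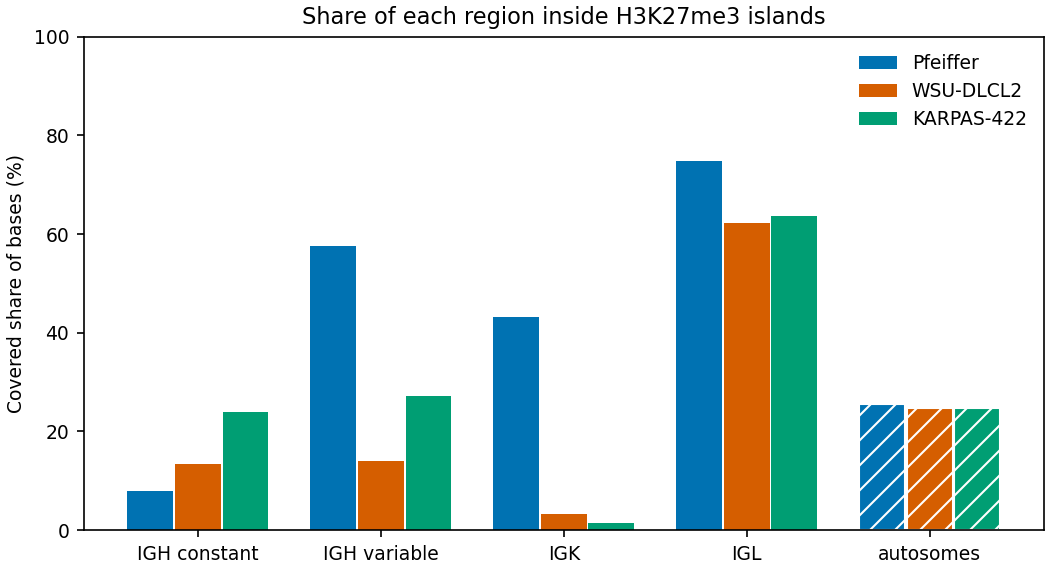
Share of bases inside H3K27me3 islands (percent, vertical axis) in each immunoglobulin region and over all autosomes (hatched bars), by line; each bar is 1 library, without a replicate. IGL is high in all 3 lines, while IGK is at 43.2% in Pfeiffer and below 4% in the other lines.

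Bins of 100 kb set these gaps against the rest of the genome. Pfeiffer exceeded WSU-DLCL2 by at least 40 percentage points of covered share in 16 of the 33 immunoglobulin bins, where 4.84% of all 28780 autosomal bins did so. It exceeded KARPAS-422 by as much in 11 of 33 bins, against 4.63% of all bins. In each of these comparisons 7 of the 12 IGK bins and 0 of the 3 constant region bins were counted. In the opposite direction Pfeiffer was that much lower than WSU-DLCL2 in 0 of these bins (3.69% of all bins) and lower than KARPAS-422 in 0 (4.19%). Only whole bins were counted, so the part of the variable region beyond 107200000 was left out. In that part WSU-DLCL2 was covered up to 107251500, where Pfeiffer had no island before 107273251. WSU-DLCL2 exceeded KARPAS-422 in 0 bins (4.00%) and was lower in 2 bins of the IGH variable region (4.67%). Neighbouring bins share islands and are not independent.

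Signal over input told the regions apart in another way: the islands of the IGH constant region were few and short but high. The authors' fold, the ratio of H3K27me3 to input reads after scaling the libraries, had a median of 3.23 over 4 islands for Pfeiffer, 3.15 over 4 for WSU-DLCL2 and 3.36 over 7 for KARPAS-422. The medians of all autosomal islands were 1.58, 1.54 and 1.61. Folds of 2 or more were found in 4 of 4, 4 of 4 and 6 of 7 constant region islands, against 10.5%, 11.3% and 19.6% of all autosomal islands in the 3 lines. Input reads per kb in these islands, divided by the value over all autosomal islands of the line, were low at 0.831 for Pfeiffer, 0.638 for WSU-DLCL2 and 0.759 for KARPAS-422. H3K27me3 reads per kb, taken relative to autosomal islands in the same way, were 1.43, 1.25 and 1.67. Pooled by line, the high folds therefore came with both more H3K27me3 reads and fewer input reads per kb than in the average island. Single islands did not all show both. Relative H3K27me3 was 0.9497 in the Pfeiffer island over IGHG4 and 0.838 in the WSU-DLCL2 island from 106174501, at relative inputs of 0.643 and 0.644. It was above the autosomal value in all other constant region islands. In the Pfeiffer island from 106079251 both were raised, at 2.61 and 1.53. The share of the low input in the high folds was not tested. Islands with a relative input of 0.75 to 1.3 covered only 0.75%, 5.25% and 7.75% of the region in the 3 lines, against 21.5%, 21.96% and 20.7% of the autosomes. That range was chosen after the values were seen.

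The constant genes inside islands differed by line. Positions are those of the rule, given to 1 kb and not checked against an annotation, and a gene counted as inside an island when that kilobase was touched. IGHG4 was inside an island in Pfeiffer (1 of 9 genes), IGHA2 and IGHE in WSU-DLCL2 (2 of 9), and IGHA2, IGHE, IGHG4, IGHG2 and IGHA1 in KARPAS-422 (5 of 9). Over all autosomal kilobases 26.2%, 25.4% and 25.4% were touched, so the counts of Pfeiffer and WSU-DLCL2 did not exceed the background and that of KARPAS-422 did. With islands of a relative input of 0.75 to 1.3 only, the counts were 0, 0 and 1 (IGHE in KARPAS-422). Counting islands within 3 kb of the position gave 1, 3 and 6 genes. This added IGHA1 in WSU-DLCL2 (0.5 kb away) and IGHG1 in KARPAS-422 (2.25 kb away). No background share was computed for that distance. IGHG1, IGHG3, IGHD and IGHM were outside islands in all 3 lines (4 of 9 genes), as were 63.5% of all autosomal kilobases; 5 of 9 genes were inside in at least 1 line, against 36.5%. Along the chromosome, the 5 genes inside an island in at least 1 line are the 5 farthest from the V segments.

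**Figure D2:**
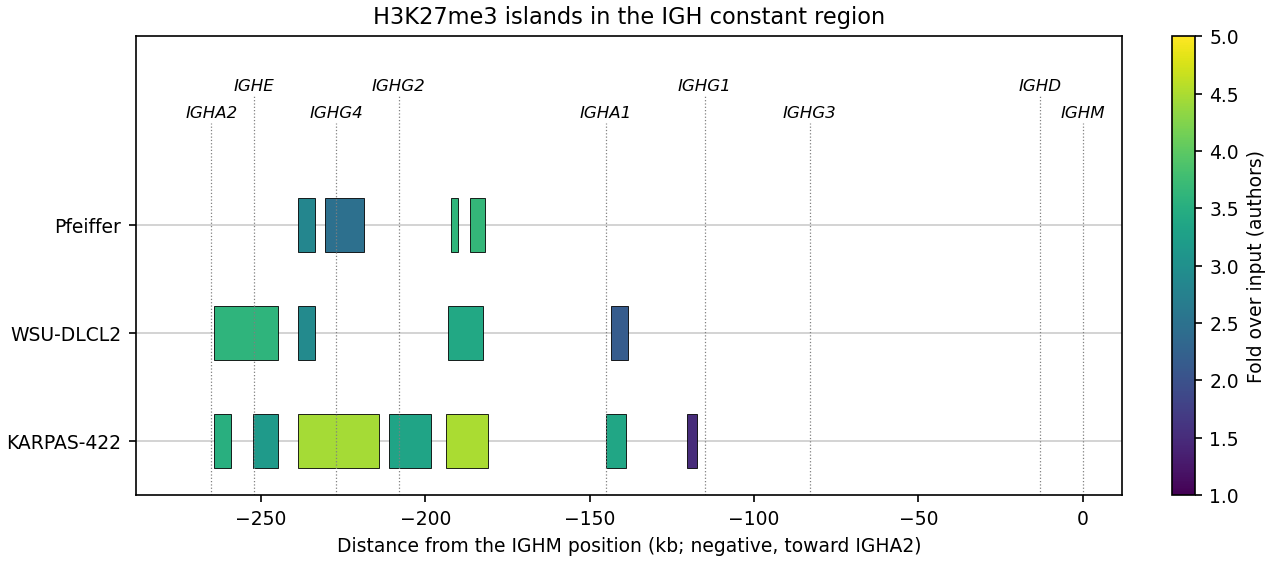
H3K27me3 islands of the IGH constant region in 3 lines, drawn as bars by distance from the IGHM position (kb, horizontal axis) and coloured by the authors' fold over input; dotted lines are gene positions given to 1 kb. Islands lie between IGHA2 and the IGHG1 position, and no line has an island from there to IGHM.

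IGHM encodes the heavy chain of IgM, the first class a B cell makes, and IGHD that of IgD, which is made from the same transcript by alternative splicing. The island nearest to IGHM was 181.75 kb away for Pfeiffer, 138.25 kb for WSU-DLCL2 and 117.25 kb for KARPAS-422. For IGHD these distances were 168.75, 125.25 and 104.25 kb. The stretch without islands around IGHM ran on into the variable region, over 384.75 kb for Pfeiffer (106136251 to 106521000), 535.5 kb for WSU-DLCL2 (106179751 to 106715250) and 516 kb for KARPAS-422 (106200751 to 106716750). It thus took in IGHM, IGHD, IGHG3 and the IGHG1 position, and the start of the variable region, in every line. Counted by number, gaps at least this long made up 3.72%, 2.46% and 1.95% of the gaps between autosomal islands. A given position is likelier to fall in a long gap than in a short one. These shares therefore understate how common such a setting is, and the share by length was not computed. The lists count reads only inside islands, so absence of the mark and loss of the DNA cannot be told apart here.

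IGHG3 and IGHG1 encode the heavy chains of IgG3 and of IgG1, the most abundant IgG in serum. IGHG3 was 98.75 kb from the nearest island of Pfeiffer, 55.25 kb from that of WSU-DLCL2 and 34.25 kb from that of KARPAS-422. Near IGHG1, KARPAS-422 had a small island from 106197751 to 106200750, which ended 2.25 kb short of the position given for the gene. That position may mark an edge of the gene and not its main exons, so the distance to those can differ; no line had an island between this one and IGHM. It held 74 H3K27me3 and 30 input reads, and its fold of 1.50 (95% interval 0.969 to 2.37) was the lowest in the constant region. The interval, exact for the ratio of 2 counts and for counting error only, includes 1; reads amplified by PCR are not separate molecules. The nearest islands of Pfeiffer and WSU-DLCL2 were 66.75 and 23.25 kb from the IGHG1 position.

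IGHA1 encodes the heavy chain of IgA1, the main IgA of serum. The kilobase given for it was touched in KARPAS-422 and narrowly missed in WSU-DLCL2. The gene can extend beyond that kilobase, so the WSU-DLCL2 island may lie inside the gene. The KARPAS-422 island ran from 106173001 to 106179000, with 188 H3K27me3 and 34 input reads and a fold of 3.36 (2.32 to 5.00). That of WSU-DLCL2 ran from 106174501 to 106179750, starting 0.5 kb beyond the gene's kilobase, with 106 and 39 reads and a fold of 2.14 (1.47 to 3.18). These intervals overlap, and whether the folds differ was not tested. In Pfeiffer the nearest island was 36.75 kb away.

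Between IGHG2 and IGHA1 all 3 lines had the mark, in an interval that in RefSeq order holds the IGHGP and ELK2AP pseudogenes. In Pfeiffer an island from 106125751 to 106128000 had 105 H3K27me3 and 25 input reads and a fold of 3.62 (2.32 to 5.84). A further Pfeiffer island from 106131751 to 106136250 had 106 and 25 reads and a fold of 3.65 (2.34 to 5.89). WSU-DLCL2 had 1 island over both, of 10.5 kb, with 401 and 93 reads and a fold of 3.40 (2.71 to 4.30). KARPAS-422 had 1 island of 12.75 kb with 768 and 104 reads and a fold of 4.49 (3.65 to 5.56). All of these ranked above the 99th percentile of fold of their own list, at 99.8 or higher. Beyond them no line had an island between 106137000, the end of the KARPAS-422 island, and 106173001, the start of its IGHA1 island.

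IGHG2 and IGHG4, which encode the heavy chains of IgG2 and of IgG4, the scarcest IgG in serum, were both inside islands in KARPAS-422. There IGHG2 lay in an island of 12.75 kb with 389 H3K27me3 and 71 input reads and a fold of 3.33 (2.58 to 4.35), which met no island of another line. IGHG4 lay in a KARPAS-422 island of 24.75 kb with 844 and 115 reads and a fold of 4.46 (3.67 to 5.47). In Pfeiffer, IGHG4 was inside an island of 12 kb with 263 and 92 reads and a fold of 2.46 (1.93 to 3.16). These IGHG4 intervals do not overlap, although each fold rests on its own libraries and scaling. WSU-DLCL2 had no island at either gene, with the nearest 6.5 kb from IGHG4 and 14 kb from IGHG2.

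Next to IGHG4 the 3 lines shared an edge. An island from 106079251 to 106084500 had the same limits in Pfeiffer (fold 2.83, 2.25 to 3.60) and in WSU-DLCL2 (fold 2.89, 2.10 to 4.06), and the KARPAS-422 island over IGHG4 began at the same base. Relative input in the Pfeiffer island was 1.53, against 0.810 in that of WSU-DLCL2 and 0.581 in that of KARPAS-422. At 2.61 times the autosomal value, its H3K27me3 reads per kb were also raised. The island between IGHG2 and IGHA1 and this one made up the 11.25 kb of the constant region that all 3 lines covered. That was 14.2% of the 79.5 kb covered in at least 1 line, below the 41.2% of the autosomes.

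IGHE encodes the heavy chain of IgE and IGHA2 that of IgA2, an IgA of mucosal surfaces. In WSU-DLCL2 a single island from 106053751 to 106073250 took in both, with 535 H3K27me3 and 117 input reads and a fold of 3.60 (2.94 to 4.44). KARPAS-422 had an island at each: 174 and 30 reads at IGHA2 (fold 3.53, 2.38 to 5.38) and 276 and 53 reads at IGHE (fold 3.17, 2.35 to 4.33). The outer limits of the islands were the same in both lines. Pfeiffer had no island at either gene, with the nearest 25.25 kb from IGHA2 and 12.25 kb from IGHE. Every base covered in Pfeiffer in the constant region was also covered in KARPAS-422, and so were 81.5% of those of WSU-DLCL2. Over the autosomes these shares were 70.1% and 71.1%. In turn 33.3% of the KARPAS-422 bases were covered in Pfeiffer and 45.8% in WSU-DLCL2, against 72.7% and 71.3% over the autosomes.

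The IGH variable region holds 48 V segments and 79 V pseudogenes among the RefSeq entries, with the D and J segments at its constant region side. No line had an island in its first 191 kb, and WSU-DLCL2 and KARPAS-422 had none in the first 385.25 and 386.75 kb. Beyond that Pfeiffer had 23 islands, WSU-DLCL2 7 and KARPAS-422 14. Their folds were near those of other islands in Pfeiffer and KARPAS-422, with medians of 1.63 and 1.49, and the median in WSU-DLCL2 was 1.97. Folds of 2 or more were found in 0 of 23, 2 of 7 and 1 of 14, against 10.5%, 11.3% and 19.6% of all autosomal islands. Out of 638.25 kb with an island in at least 1 line, 60.6% had it in a single line and 9.28% in all 3, against 31.8% and 41.2% over the autosomes.

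The islands of the variable region lay in different stretches in each line. In Pfeiffer islands covered most of the stretch from 106521001 to 107181000, with breaks between them. Its longest island was 68.25 kb (107051251 to 107119500, with 1528 H3K27me3 and 747 input reads and a fold of 1.76, 1.61 to 1.92). In KARPAS-422 most of it lay from 106886251 to 107185500, with a longest island of 36.75 kb (106987501 to 107024250; fold 1.42, 1.23 to 1.63). WSU-DLCL2 had scattered islands of 9.75 to 12.75 kb up to 107172750, then its longest of 61.5 kb (107190001 to 107251500; 1546 and 759 reads; fold 1.61, 1.47 to 1.75). That WSU-DLCL2 island filled most of a stretch of 92.25 kb, from 107181001 to 107273250, without an island of Pfeiffer. Conversely, WSU-DLCL2 listed no island over 219 kb, from 106812001 to 107031000, of which Pfeiffer covered 75.3% and KARPAS-422 51.0%, nor over 87.75 kb, from 107072251 to 107160000, of which they covered 88.0% and 51.3%. It also lacked islands over 73.5 kb, from 106727251 to 106800750, where Pfeiffer covered 82.7%. Likewise KARPAS-422 listed none over 159 kb, from 106727251 to 106886250, of which Pfeiffer covered 71.2%, and none over 60.75 kb, from 107185501 to 107246250, of which WSU-DLCL2 covered 92.6%.

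The strongest variable region islands were small. In Pfeiffer they had folds of 1.95 (106843501 to 106857000; 297 and 131 reads) and 1.94 (106797001 to 106812750; 535 and 237 reads). The highest in WSU-DLCL2 was 2.75 (2.07 to 3.70), from 107031001 to 107042250 with 220 and 63 reads, and the next 2.02, from 107062501 to 107072250. In KARPAS-422 the first, with a fold of 2.26 (1.49 to 3.54), was 5.25 kb long with 108 and 29 reads, and the next was 1.93. At the chromosome end all 3 lines had an island from about 107273251, with folds of 1.54, 1.97 and 1.93.

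Relative input differed along the variable region in WSU-DLCL2. Its first 4 variable region islands, which end at 107072250, had relative inputs of 0.486 to 0.781 (pooled 0.659), and the last 3 had 1.07 to 1.33 (pooled 1.11). Islands over the first span had pooled relative inputs of 1.00 in Pfeiffer and 1.02 in KARPAS-422, and covered shares of 80.3% for Pfeiffer, 12.4% for WSU-DLCL2 and 44.3% for KARPAS-422. Over the second span WSU-DLCL2 had the largest share, at 70.3%, against 28.5% in Pfeiffer and 44.8% in KARPAS-422. Fewer copies of the DNA and less of the mark cannot be told apart where no island gives an input. The islands were grouped after their values were seen.

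**Figure D3:**
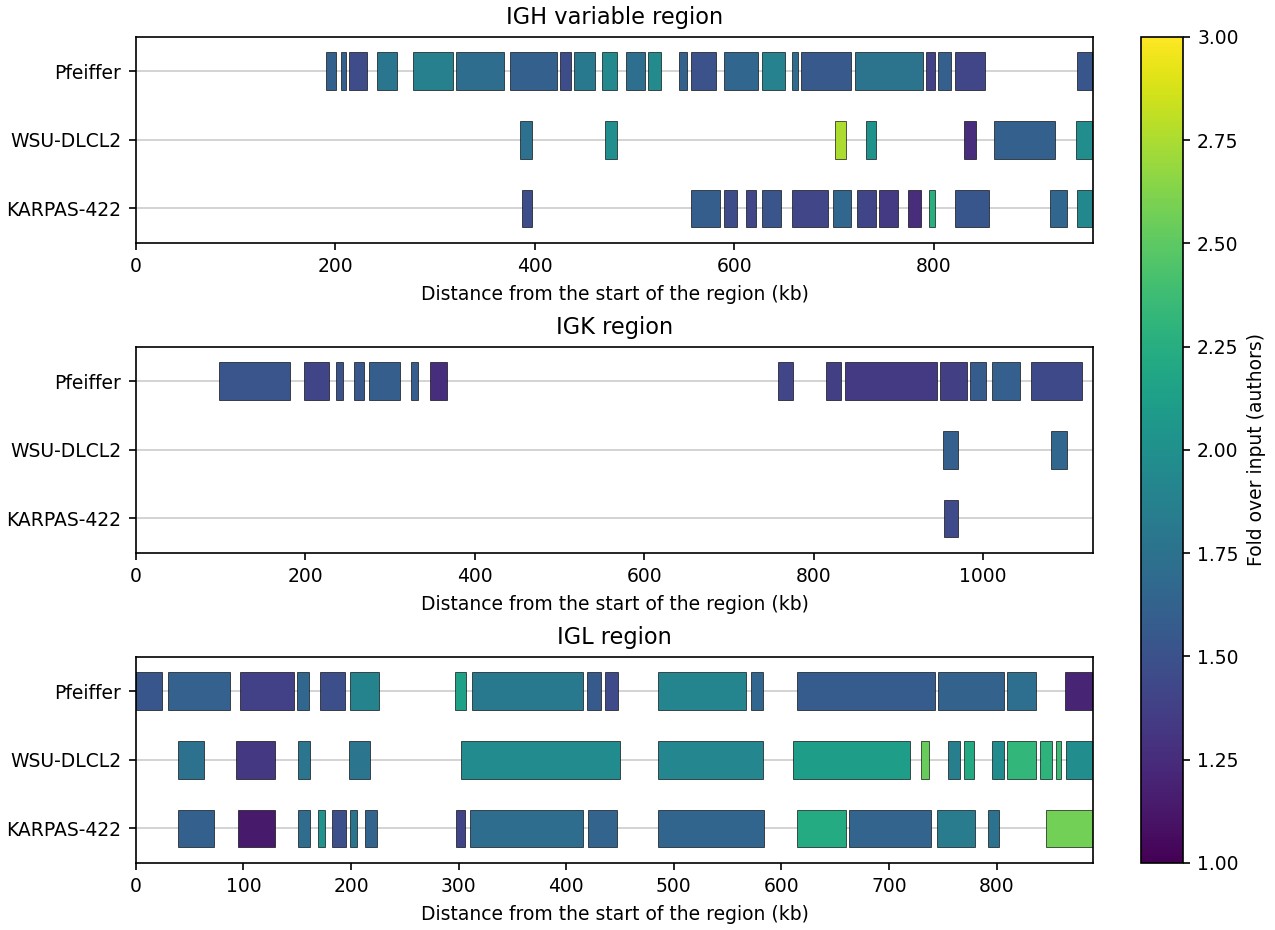
H3K27me3 islands in the IGH variable, IGK and IGL regions by distance from the start of each region (kb, horizontal axis), a row per line, coloured by the authors' fold over input. Pfeiffer has the most coverage in the IGH variable region (57.6%) and in IGK (43.2%, with a stretch of 390 kb without islands), while IGL is covered over 62.2% or more in every line.

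IGK encodes the kappa light chain, with 1 constant gene, IGKC, at the start of the region, followed by 5 J segments and 44 V segments among the RefSeq entries. In Pfeiffer 14 islands covered 488.25 kb, in WSU-DLCL2 2 islands covered 37.5 kb, and in KARPAS-422 1 island covered 17.25 kb. All 3 lines lacked islands at the IGKC end: the first began 97.75 kb into the region for Pfeiffer, 952.75 kb for WSU-DLCL2 and 953.5 kb for KARPAS-422. The V segments are arranged as a pair of duplicated clusters in opposite orientation with an assembly gap between them. Covered shares of IGK were taken over the full length of the region, without leaving out that gap. Pfeiffer had islands on both sides of a stretch of 390 kb without any, from 89517751 to 89907750.

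Folds in IGK were below 2 in every island. Medians were 1.47 for Pfeiffer, 1.63 for WSU-DLCL2 and 1.45 for KARPAS-422, against 1.58, 1.54 and 1.61 over all autosomal islands. A fold of 2 was reached by 0 of 14, 0 of 2 and 0 of 1 islands. Over all autosomal islands 10.5%, 11.3% and 19.6% reached it. The interval from 90103501 to 90120750 was the only one covered in every line, 3.53% of what any line covered in IGK against 41.2% over the autosomes. There Pfeiffer had 1769 H3K27me3 and 1113 input reads in an island of 32.25 kb (fold 1.37, 1.27 to 1.48), WSU-DLCL2 447 and 220 reads (fold 1.60, 1.36 to 1.89) and KARPAS-422 410 and 172 reads (fold 1.45, 1.21 to 1.74). The other WSU-DLCL2 island, from 90229501 to 90249000, had a fold of 1.65 (1.40 to 1.96). Pfeiffer's highest folds were 1.59, at 90160501 to 90193500 and at 89424751 to 89462250. Its longest island, from 89986501 to 90095250, covered 108.75 kb with 3364 and 2164 reads and a fold of 1.34 (1.27 to 1.41). After the shared interval, from 90120751 on, WSU-DLCL2 had no island for 108.75 kb, of which Pfeiffer covered 78.6%. KARPAS-422 had none for 159 kb, up to 90279750, of which Pfeiffer covered 77.4%.

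Input in Pfeiffer was raised in part of IGK. Pooled over its IGK islands it was 1.67 times the autosomal value, against 0.990 for WSU-DLCL2 and 1.25 for KARPAS-422. It passed 1.3 in 5 of the 14 islands (4.63% of all autosomal islands of Pfeiffer did), which held 302.25 of the 488.25 kb, and reached 2.38 from 89247751 to 89331750, 2.40 from 90207001 to 90267000 and 2.89 from 90099001 to 90131250. The remaining islands had relative inputs of 0.629 to 1.10. Raised input was not limited to IGK. The nearest Pfeiffer island before the region, from 88922251 to 88995000, had a relative input of 3.09 and a fold of 1.19. Restricted to islands with a relative input of 0.75 to 1.3, a choice made after the values were seen, Pfeiffer covered 15.4% of IGK, against 3.32% for WSU-DLCL2 and 1.53% for KARPAS-422. Under the same restriction islands covered 21.5% (Pfeiffer), 21.96% (WSU-DLCL2) and 20.7% (KARPAS-422) of the autosomes. The part of raised input in the covered share of Pfeiffer was not tested.

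IGL encodes the lambda light chain. Among the RefSeq entries it has 38 V segments, followed at its far end by 7 J segments and 4 constant genes. Its islands numbered 16 for Pfeiffer, 15 for WSU-DLCL2 and 16 for KARPAS-422, with median folds of 1.61, 1.96 and 1.67. Folds of 2 or more were found in 1 of 16, 6 of 15 and 3 of 16, against 10.5%, 11.3% and 19.6% of all autosomal islands. Only the WSU-DLCL2 count exceeded that share. Out of 721.5 kb with an island in at least 1 line, 64.2% had it in all 3, above the 41.2% of the autosomes, in 18 intervals of up to 102.75 kb. Of the Pfeiffer bases 76.4% had an island in WSU-DLCL2 and 79.8% had one in KARPAS-422, against 71.9% and 70.1% over the autosomes. In the other direction, 91.9% of the WSU-DLCL2 bases and 93.8% of the KARPAS-422 bases were covered in Pfeiffer, against 74.4% and 72.7%.

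The island layout of IGL was alike down to single limits. An island began at 22865251 in all 3 lines, with folds of 1.91 (1.76 to 2.08) for Pfeiffer, 1.92 (1.79 to 2.05) for WSU-DLCL2 and 1.65 (1.52 to 1.79) for KARPAS-422. The longest island of each line was 127.5 kb for Pfeiffer (22995001 to 23122500; 3006 and 1642 reads; fold 1.58, 1.48 to 1.68), 147.75 kb for WSU-DLCL2 (22682251 to 22830000; 4527 and 1825 reads; fold 1.95, 1.85 to 2.06) and 105 kb for KARPAS-422 (22690501 to 22795500; 2403 and 854 reads; fold 1.71, 1.58 to 1.85). A gap of 71.25 kb for Pfeiffer, 84.75 kb for WSU-DLCL2 and 73.5 kb for KARPAS-422, near 22605751 to 22677000, was the longest stretch without islands in each.

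At the far end of IGL, towards the J segments and constant genes, the lines differed in fold. From 23226001 to 23301000 KARPAS-422 had the island with its highest fold in IGL, 2.57 (2.36 to 2.81), with 2635 H3K27me3 and 622 input reads. In WSU-DLCL2 the last island, from 23244751 to 23310750, had 2261 and 903 reads and a fold of 1.97 (1.83 to 2.13). The last Pfeiffer island, from 23244001 to 23269500, had 517 and 372 reads and the lowest fold of its IGL islands, 1.20 (1.05 to 1.37). These 3 intervals do not overlap, and relative inputs were alike at 1.22 for Pfeiffer, 1.19 for WSU-DLCL2 and 1.04 for KARPAS-422. The KARPAS-422 and WSU-DLCL2 islands run past the region end at 23270 kb, and that of Pfeiffer does not. The folds thus describe unlike stretches, and each rests on its own libraries and scaling. The highest IGL folds of Pfeiffer were 2.15 (22677001 to 22686750) and 1.91 (22865251 to 22947000), those of WSU-DLCL2 were 2.53 (23109751 to 23117250) and 2.36 (23235001 to 23240250), and the next of KARPAS-422 was 2.23 (22995001 to 23040000).

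Just before that end, WSU-DLCL2 again had low input. In 7 islands from 23109751 to 23240250 its relative input was 0.552 to 0.760 (pooled 0.630), against 1.04 to 1.28 in the 7 islands before them and 1.19 in the last. Its islands covered 63.2% of that span and 65.5% of the span before it. Pfeiffer and KARPAS-422 islands over the same span had pooled relative inputs of 1.10 and 1.04. The median fold of WSU-DLCL2 there was 2.29, against 1.78 in the islands before them, and 5 of its 6 IGL islands with a fold of at least 2 were among these 7. Input below 0.75 was found in 6 of the 15 IGL islands of WSU-DLCL2, 0 of 16 in Pfeiffer and 0 of 16 in KARPAS-422, while 7.92%, 9.84% and 11.4% of all autosomal islands of WSU-DLCL2, Pfeiffer and KARPAS-422 had it. The part of low input in these folds was not tested, and the islands were grouped after their values were seen.

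**Figure D4:**
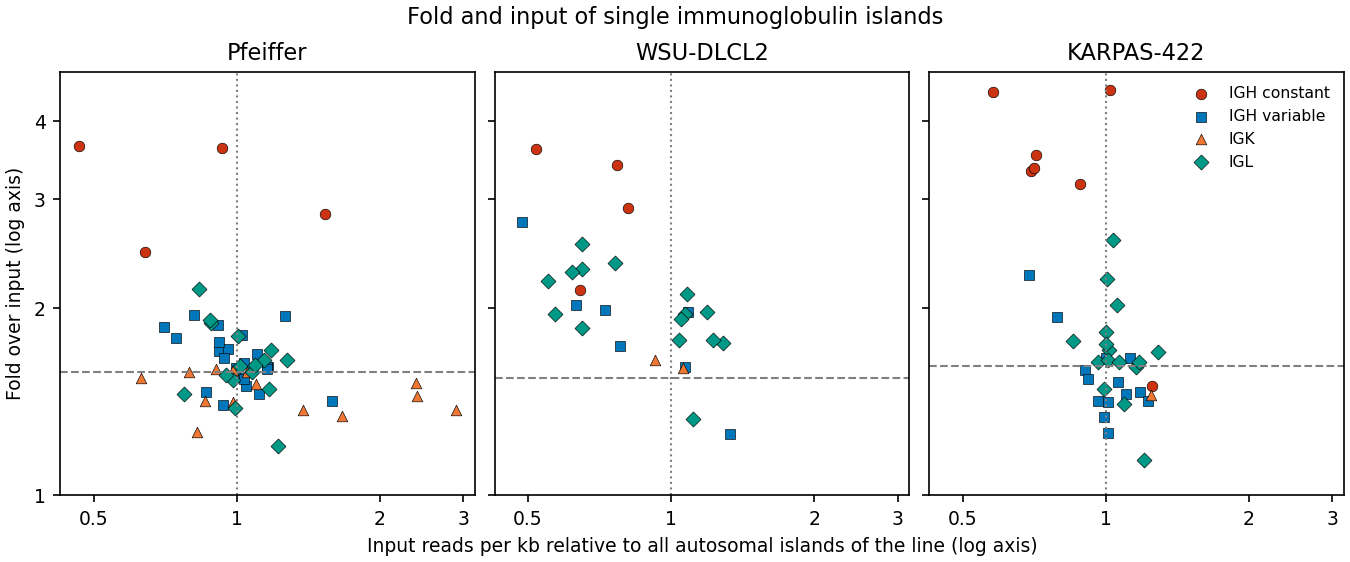
Fold over input against relative input for the single immunoglobulin islands, a panel per line, both axes logarithmic; the dashed line is the median fold of all autosomal islands and the dotted line a relative input of 1. The highest folds of each panel belong to IGH constant islands, whose medians are 3.23, 3.15 and 3.36, and IGK islands of Pfeiffer reach the highest input (2.89).

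At the IGH constant border, the nearest islands outside had lower folds than the first inside. Before the IGH constant region an island ended at 106023000, 7 kb away, in every line, with folds of 1.72, 2.39 and 2.11 in Pfeiffer, WSU-DLCL2 and KARPAS-422. The first constant region islands after it had 2.83, 3.60 and 3.53. Beyond IGL the next islands were 22.75 kb away for Pfeiffer (fold 1.39), 45.25 kb for WSU-DLCL2 (1.49) and 109 kb for KARPAS-422 (1.38). The last IGL islands had 1.20, 1.97 and 2.57, so the fold of Pfeiffer was higher outside. Before IGL the folds were higher outside in every line, at 1.59, 2.15 and 2.01. The first IGL islands had 1.53, 1.75 and 1.61. At both IGK borders the fold was lower outside in Pfeiffer and WSU-DLCL2 and higher outside in KARPAS-422.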

How the data were processed

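Per the labels' protocols, fixed chromatin of the 3 lines was immunoprecipitated for H3K27me3, with an input library beside it. The submitters' processing notes name Bowtie, SICER and hg19; versions and read filters were not stated. The deposited lists, named for a false discovery rate of 0.001, windows of 750 and gaps of 2250 bases, give per island the whole counts of H3K27me3 and input reads, a p-value, a q-value and the fold (the ratio after scaling), all made by the authors. Library ratios recovered from these values were 1.16 for Pfeiffer, 1.27 for WSU-DLCL2 and 1.65 for KARPAS-422. The lists hold no reads outside islands, so full depth is unknown.

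From the lists, covered shares were counted on windows of 750 bases, and islands were taken into a region at 1 base of overlap. Bins of 100 kb were assigned to a region by their midpoint, and only whole bins up to the last listed base of a chromosome were kept. The autosomal length was 2879 Mb, the sum of the last listed bases. Relative input is input reads per kb of islands over that of all autosomal islands of the line. Intervals are exact 95% intervals for the ratio of 2 counts and cover counting error only. Coordinates are counted from 1 on hg19. RefSeq (GRCh38.p14) gave names, order and sequences only; planned gene and marker lists that need an hg19 annotation were not run. Named were all 9 constant genes, all constant region islands and, elsewhere, the 2 highest and the longest island per line and stretches of at least 50 kb in which 1 line had no island and another covered at least 50%. Regions, genes and lists were chosen with earlier results of these data known. The scripts were tested on simulated lists. Python 3.11.15, numpy 2.4.6, pandas 2.3.3, scipy 1.17.1 and matplotlib 3.10.9 were used.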

Additional observations from a re-analysis of the deposited data

How the results depend on the processing

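No paired analysis was possible because each line has 1 H3K27me3 library and no test was run. A false discovery rate of 1e-10 gave covered shares of 53.6% (Pfeiffer) and 18.3% (KARPAS-422) in the IGH variable region, 35.7% in IGK of Pfeiffer, and 70.4% (Pfeiffer) and 56.6% (KARPAS-422) in IGL; coverage shared by all lines was 4.29% in the variable region and 53.3% in IGL. With a fold of at least 2 the variable region had 0%, 2.19% and 0.547% in Pfeiffer, WSU-DLCL2 and KARPAS-422, IGK 0% in each, and IGL 1.10%, 18.8% and 10.8%, with 0% shared in the variable region and in IGL, so the lead of Pfeiffer was lost there. Joining islands under 5 kb apart gave 62.2% of the variable region in Pfeiffer. Equal numbers of islands gave KARPAS-422 22.8% of the variable region and 58.8% of IGL. Islands of ordinary relative input (0.75 to 1.3), chosen after seeing the data, left 0.75%, 5.25% and 7.75% of the constant region, 48.3% of the variable region and 15.4% of IGK in Pfeiffer, and 9.38% of the variable region and 53.5% of IGL in WSU-DLCL2. Taken as a median over islands, relative input was 1.14 in the variable region of Pfeiffer and 1.07 in IGK of WSU-DLCL2. These values use a divisor other than the pooled autosomal input. Divided by the pooled value, the medians over islands were 1.03 and 0.993. Of 64 immunoglobulin bins of 50 kb, Pfeiffer was higher than WSU-DLCL2 in 26 and lower in 1, against 5.93% and 4.96% of autosomal bins. It was higher than KARPAS-422 in 20 and lower in 1 (5.97% and 5.22%). WSU-DLCL2 was higher than KARPAS-422 in 1 and lower in 5 (5.46% and 5.73%). With a difference of 30 points, Pfeiffer was lower than WSU-DLCL2 in 1 of 33 bins of 100 kb (5.73% of autosomal bins). It was lower than KARPAS-422 in 1 (6.31%). The cause of these shifts was not tested. In the same range of input the constant genes inside islands numbered 0 (Pfeiffer), 0 (WSU-DLCL2) and 1 (KARPAS-422). Counting islands within 3 kb of the position gave 1, 3 and 6, and the other alternatives run did not change the numbers. A low count limits single constant region islands, of which those with 25 to 39 input reads have the widest intervals.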

Other observations

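Coverage in the 1 Mb beside the loci was close to that inside them on some sides and far from it on others. In the 1 Mb before the IGH constant region islands covered 74.3% (Pfeiffer), 74.6% (WSU-DLCL2) and 77.6% (KARPAS-422), with median folds of 2.15, 2.43 and 2.38 and relative inputs of 0.936, 1.07 and 1.10. Before IGK the covered share of 1 Mb was 45.9%, 39.0% and 28.7%, at relative inputs of 1.26, 0.927 and 0.928. In the 1 Mb after IGK it was 4.35%, 0% and 0.450%. How much of that stretch hg19 leaves unsequenced was not checked, so these low shares may not describe the mark. In the 1 Mb before IGL it was 21.8%, 18.2% and 15.8%, and in the 1 Mb after it 58.4%, 66.5% and 45.7%. The lead of Pfeiffer inside IGK was smaller in the 1 Mb before it, and in the 1 Mb before the IGH locus the 3 lines differed by less than 4 percentage points.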
